A study of Mus musculus with 19 samples.

Results

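The genes described here are 8 genes of class I antigen presentation: Tap1, Tap2, Tapbp, B2m, Psmb8, Psmb9, Psmb10 and Nlrc5. They were taken by gene symbol from the annotation of the array and are 8 of 18820 genes measured. Each is represented by its brightest probe set over all 19 arrays. The 8 genes had 26 probe sets among 35556 on the array, 19 of them for Nlrc5 and 1 for each of the others.

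Nearly every cell shows samples of its own proteins to T cells on class I molecules. Proteasomes cut the proteins into peptides, a transporter in the membrane of the endoplasmic reticulum moves the peptides in, and they are loaded there onto a heavy chain paired with beta-2-microglobulin. Interferons raise these genes in many cell types, and the immunoproteasome subunits then replace their constitutive counterparts. Fat cells carry class I molecules, and presentation by adipocytes has been studied in obesity.

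RNA came from differentiated 3T3-L1 cells, a mouse embryonic fibroblast line that turns into fat-storing cells in culture, on 19 Affymetrix Mouse Gene 1.1 ST arrays. Serum was removed on day 7 of differentiation in all groups, insulin stayed in the medium, and for 48 h from day 8 the cells received 1 fatty acid at 250 µM in ethanol with 2% albumin. The groups were palmitic acid (PA, 16 carbons, saturated, n = 4), palmitoleic acid (PMA, PMO in the array titles, 16 carbons, 1 double bond, n = 4), stearic acid (SA, 18 carbons, saturated, n = 4), oleic acid (OA, 18 carbons, 1 double bond, n = 3) and control (ethanol and albumin alone, n = 4). The labels call the arrays biological replicates of 1 cell line and do not say whether they came from separate differentiations, so the p-values measure the spread between these arrays.

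Values are log2 RMA expression, in which background correction, normalisation between arrays and summary per probe set were done by the authors. Differences are given ± SE with adjusted p-values from a limma fit over all 18820 genes and 19 arrays (Benjamini-Hochberg over all genes of a comparison). A gene was called at an adjusted p under 0.05. Array medians lay between 5.23 and 5.43. PA replicates 2 and 4 stood lowest on the first principal component, at -27.4 and -13.8, and PMA replicates 1 and 4 had medians of 5.41 and 5.35, against 5.24 and 5.27 in the other 2 PMA arrays. Of the adipocyte markers, 11 of 12 were measured and all 11 lay above the median gene, while 7 of the 8 myeloid, all 7 measured lymphocyte and all 5 endothelial markers lay below it. Preadipocyte and fibroblast markers were bright as well: 10 of 11 were measured and 9 lay above the median gene. Their median percentile among all genes was 98.2, and that of the adipocyte markers 99.5. The number of arrays limits the precision.

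Of the 8 genes, 5 lie on chromosome 17 (GRCm38.p6, RefSeq). Psmb9, Tap1, Psmb8 and Tap2 sit in that order within 34.3 kb, chr17:34182030-34216321, and Tapbp lies outside this block at chr17:33919478-33929290. B2m is on chromosome 2 (chr2:122147687-122153082), and Psmb10 (chr8:105935728-105938392) and Nlrc5 (chr8:94434335-94527272) are on chromosome 8. Psmb9 and Tap1 are divergent, with starts 226 bases apart. RefSeq promoter windows, from 250 bases before to 50 after the start, were at hand for 6 of the 8 genes, and those of Tap1 and Psmb9 share 275 bases on opposite strands. A pair is printed 5′ to 3′ on the plus strand: the window of Tap1, at chr17:34187306-34187605, since Tap1 differed most between the acids, and that of B2m, at chr2:122147437-122147736, as a window with interferon and NF-kB motifs. Capitals mark matches to the motifs searched.
Tap1 promoter: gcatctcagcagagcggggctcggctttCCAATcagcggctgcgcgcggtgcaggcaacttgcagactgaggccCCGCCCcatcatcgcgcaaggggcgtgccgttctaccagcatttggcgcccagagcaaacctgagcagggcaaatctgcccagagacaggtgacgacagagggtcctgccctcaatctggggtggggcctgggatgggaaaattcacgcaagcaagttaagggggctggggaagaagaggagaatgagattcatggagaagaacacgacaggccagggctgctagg
B2m promoter: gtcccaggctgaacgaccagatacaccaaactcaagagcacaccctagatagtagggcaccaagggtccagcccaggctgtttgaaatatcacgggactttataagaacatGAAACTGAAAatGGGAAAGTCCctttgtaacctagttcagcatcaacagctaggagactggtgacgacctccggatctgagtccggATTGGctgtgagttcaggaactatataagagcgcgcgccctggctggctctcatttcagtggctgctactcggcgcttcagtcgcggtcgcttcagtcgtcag
Motifs were sought on both strands in all 6 windows. The interferon-stimulated response element core (GAAA, any 2 bases, GAAA) was in 1 of the 6, B2m, at 139 bases before the start, and in 3.44% of 32851 windows of all genes. The NF-kB pattern (GGGAA, any 3 bases, CC) was also in 1, again B2m, at 127 bases before the start, against 5.78% of all windows. The interferon gamma activated site TTCNNNGAA was in 1, Psmb8, at 97 bases before the start, against 8.30% of all windows. The CCAAT box was in 4 of the 6 (B2m, Tapbp, Psmb9 and Tap1) and in 37.4% of all windows, and the GC box GGGCGG in 3 of the 6 (Tapbp, Psmb9 and Tap1) and in 35.7%. In the Tap1 and Psmb9 windows, which overlap, the CCAAT box and the GC box are the same sites, so each counts under both genes. In the Tap1 window the CCAAT box begins 222 bases, and the GC box, on the other strand, 176 bases before the start. A match is a description of these letters and not of a bound site.

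None of the 8 genes was called against control with any of the 4 acids. The members of the peptide transporter took their highest levels with PMA or PA and their lowest with OA, B2m averaged lower with every acid, and no gene differed from control by more than 0.23. The share of all genes called in either direction was 0% for PA, 0.266% for PMA, 0.165% for SA and 0.861% for OA, so that a count of 0 among 8 members is near the background in each. At an unadjusted p under 0.05 in limma, 4 of the 8 members stood out with PA, 2 with PMA, 1 with SA and 4 with OA, against 2900, 3011, 1605 and 2190 of all 18820 genes. The median difference of the members was 0.08 with PA, 0.11 with PMA, -0.05 with SA and -0.10 with OA, and that of all genes was 0.03, 0.06, 0.02 and 0.02. With a further normalisation between the arrays, cyclic loess, the medians of the members were 0.06, 0.05, -0.06 and -0.10. Those of all genes were then 0.005, 0.010, 0.006 and 0.008. The comparisons share the 4 control arrays. In these bulk samples fewer cells of a type and less RNA per cell cannot be told apart.

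**Figure D1:**
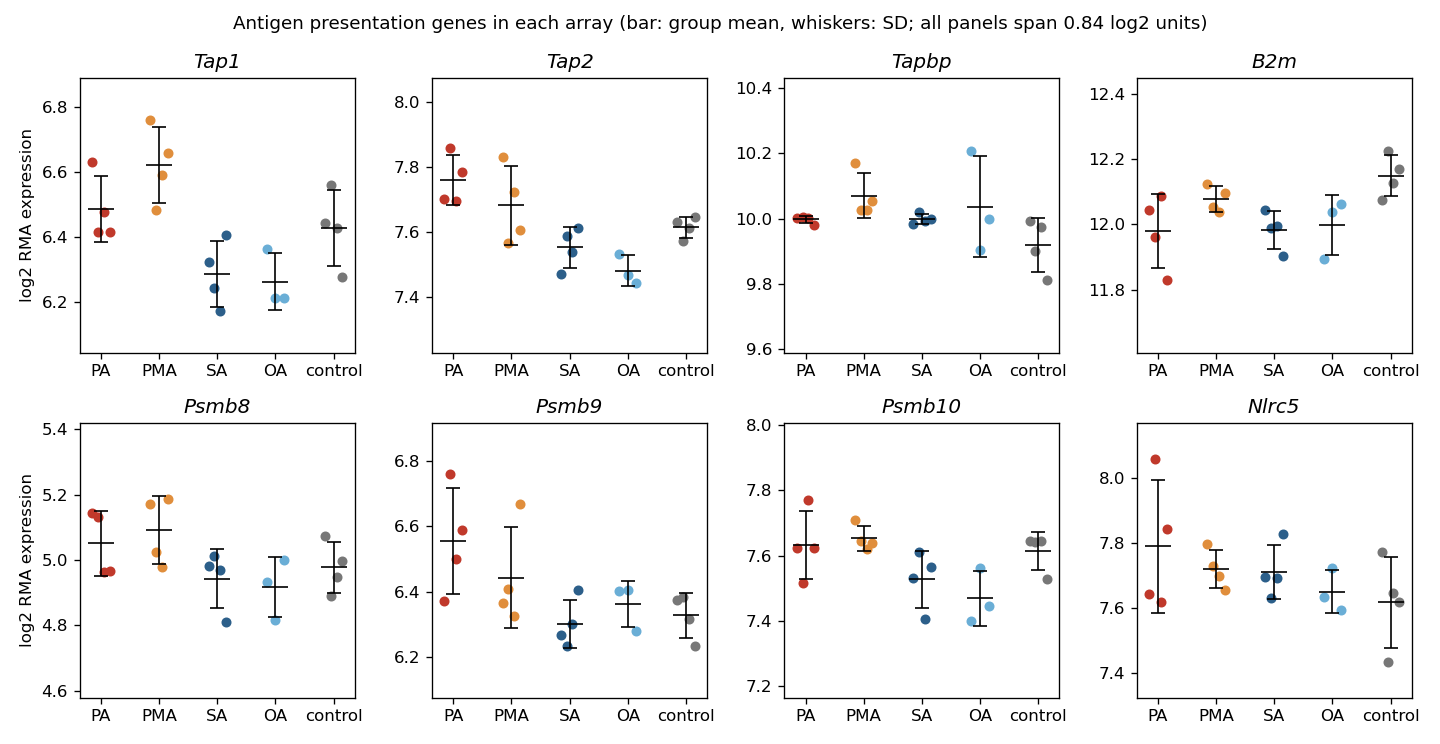
Level of the 8 genes in each array as log2 RMA expression (y axis, the same span of 0.84 in every panel), by group on the x axis; points are arrays, the bar is the group mean and the whiskers its SD. Tap1 lies at 6.42 to 6.76 in the 8 arrays with PA or PMA and at 6.17 to 6.41 in the 7 with SA or OA, while B2m lies at 11.83 to 12.12 with the acids and at 12.08 to 12.22 in control.

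Tap1 encodes a subunit of the transporter that pumps peptides into the endoplasmic reticulum (probe set 10444244). Its level was 6.63, 6.42, 6.48 and 6.42 with PA and 6.76, 6.48, 6.59 and 6.66 with PMA. With SA it was 6.32, 6.24, 6.17 and 6.41, and with OA 6.37, 6.21 and 6.21. The control arrays read 6.44, 6.56, 6.43 and 6.28, so that they overlapped every acid group, while all 8 arrays with a 16-carbon acid were above all 7 with an 18-carbon acid. Group means were 6.49 ± 0.10 with PA, 6.62 ± 0.12 with PMA, 6.29 ± 0.10 with SA (SD, n = 4 each), 6.26 ± 0.09 with OA (SD, n = 3) and 6.43 ± 0.12 in control (SD, n = 4). Against control the difference was 0.06 ± 0.07 with PA (adjusted p = 0.701), 0.20 ± 0.07 with PMA (0.200), -0.14 ± 0.07 with SA (0.633) and -0.16 ± 0.08 with OA (0.423). Tap1 was the 1 member called by the F test over the 5 groups, which asks whether the group means differ at all (F = 7.78, adjusted p = 0.0417); this test called 1.47% of all genes. The call sat close to the threshold. With 1 array left out F ran from 6.06 to 9.07. Leaving out any of 11 of the 19 arrays took the adjusted p to between 0.0598 and 0.104. These were control replicates 1 and 3, PA replicate 4, PMA replicates 1, 3 and 4, SA replicates 1, 2 and 3 and OA replicates 2 and 3.

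Tap2 encodes the other subunit of the transporter (probe set 10444268). It read 7.70, 7.86, 7.69 and 7.78 with PA and 7.83, 7.57, 7.72 and 7.61 with PMA. With SA the values were 7.47, 7.59, 7.54 and 7.61, with OA 7.53, 7.47 and 7.44, and in control 7.63, 7.57, 7.61 and 7.65. The PA arrays lay above all control arrays and the OA arrays below them, without overlap, while PMA and SA overlapped control. Of all genes, 3.90% lay wholly above control with PA and 4.63% wholly below it with OA. The difference from control was 0.14 ± 0.06 with PA (adjusted p = 0.267), 0.07 ± 0.06 with PMA (0.578), -0.06 ± 0.06 with SA (0.875) and -0.13 ± 0.06 with OA (0.414). In the F test over the 5 groups Tap2 had F = 6.18 and an adjusted p of 0.0795. Without PA replicates 2 and 4 the difference between PA and control was 0.08.

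Tapbp encodes tapasin, which holds the class I molecule at the transporter while it is loaded (probe set 10444068). Its 4 PA arrays read 9.98 to 10.01, the PMA arrays 10.03 to 10.17, the SA arrays 9.98 to 10.02, the OA arrays 9.90 to 10.21 and the control arrays 9.81 to 9.99. All 4 PMA arrays lay above all control arrays, as for 9.29% of all genes, and the other acids overlapped control. The difference from control was 0.08 ± 0.06 with PA, 0.15 ± 0.06 with PMA, 0.08 ± 0.06 with SA and 0.12 ± 0.06 with OA, with adjusted p of 0.517, 0.227, 0.812 and 0.513. The 95% interval with PMA ran from 0.03 to 0.27. Without PMA replicates 1 and 4 the PMA difference was 0.11.

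B2m encodes beta-2-microglobulin, the light chain of every class I molecule, and was measured by probe set 10475414. It read 12.05, 11.96, 12.09 and 11.83 with PA and 12.12, 12.05, 12.04 and 12.10 with PMA. With SA it read 12.04, 11.99, 11.99 and 11.90, with OA 11.89, 12.04 and 12.06, and in control 12.08, 12.22, 12.13 and 12.17. The SA and the OA arrays all lay below the lowest control array, as they did for 2.50% and 4.63% of all genes, while PA and PMA each overlapped control. The difference from control was -0.17 ± 0.06 with PA, -0.07 ± 0.06 with PMA, -0.17 ± 0.06 with SA and -0.15 ± 0.06 with OA, with adjusted p of 0.230, 0.546, 0.352 and 0.329. B2m was thus the 1 member whose mean was below control with each acid, at 0.89 to 0.95 of the control level, and in no case past the threshold. Without PA replicates 2 and 4 the PA difference was -0.08.

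Psmb8, Psmb9 and Psmb10 encode the catalytic subunits of the immunoproteasome (beta5i, beta1i and beta2i). Psmb9, measured by probe set 10450145, read 6.37, 6.76, 6.50 and 6.59 with PA and 6.37, 6.41, 6.33 and 6.67 with PMA. In the SA arrays it was 6.27, 6.23, 6.30 and 6.40, in the OA arrays 6.40, 6.40 and 6.28, and in the control arrays 6.37, 6.38, 6.32 and 6.23. The highest values were those of PA replicate 2 and PMA replicate 4, and PA replicate 1 lay among the controls. Psmb9 had the largest difference of the 8 genes from control, 0.23 ± 0.08 with PA, with a 95% interval of 0.07 to 0.39 and an adjusted p of 0.230. It was 0.12 ± 0.08 with PMA (0.466), -0.03 ± 0.08 with SA (0.977) and 0.03 ± 0.08 with OA (0.947). The PA difference depended on single arrays: it was 0.29 without PA replicate 1, with an adjusted p of 0.0488, and 0.11 without PA replicates 2 and 4. Without PA replicate 1 limma called 510 of all 18820 genes between PA and control, against 0 with all arrays.

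Psmb8 (probe set 10444258) ranged from 4.96 to 5.14 with PA, 4.98 to 5.19 with PMA, 4.81 to 5.01 with SA, 4.82 to 5.00 with OA and 4.89 to 5.07 in control. Every value lay below the median of its array, so the probe set measured Psmb8 among the dimmer signals, where background is a larger part. Its difference from control was 0.07 ± 0.07 with PA (adjusted p = 0.585) and 0.11 ± 0.07 with PMA (0.397). With SA it was -0.03 ± 0.07 (0.950) and with OA -0.06 ± 0.07 (0.845), and all acid groups overlapped control. With cyclic loess between arrays the PA difference of Psmb8 was -0.01.

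Psmb10 (probe set 10581378) ranged from 7.52 to 7.77 with PA, 7.62 to 7.71 with PMA, 7.41 to 7.61 with SA, 7.40 to 7.56 with OA and 7.53 to 7.65 in control. It differed from control by 0.02 ± 0.06 with PA (adjusted p = 0.893), 0.04 ± 0.06 with PMA (0.767), -0.09 ± 0.06 with SA (0.771) and -0.15 ± 0.06 with OA (0.363). The groups overlapped control in all 4 comparisons. The constitutive subunits that these 3 replace, Psmb5, Psmb6 and Psmb7, were not called in any comparison either. Psmb5 differed from control by 0.13 with PA, 0.18 with PMA, 0.13 with SA and 0.10 with OA, with adjusted p of 0.143 to 0.566.

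Nlrc5 encodes the transactivator that drives class I genes from inside the nucleus (probe set 10574100). Its level was 7.64, 8.06, 7.62 and 7.84 with PA and 7.80, 7.73, 7.70 and 7.66 with PMA. With SA it was 7.70, 7.63, 7.69 and 7.83, with OA 7.63, 7.72 and 7.59, and in control 7.77, 7.43, 7.65 and 7.62. The highest PA values were in replicates 2 and 4, the arrays that stand apart, and every acid group overlapped control. The difference of Nlrc5 with PA was 0.17 ± 0.08 (adjusted p = 0.321), and it was 0.01 with those 2 arrays left out. With PMA it was 0.10 ± 0.08, with SA 0.09 ± 0.08 and with OA 0.03 ± 0.09, with adjusted p of 0.543, 0.858 and 0.955.

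The 19 probe sets of Nlrc5 were tested apart, over every probe set on the array, and none was called in any comparison. Against control, 14 of the 19 were higher with PA, with a median of 0.15 and a range of -0.14 to 0.34, and 5 of them had an unadjusted p under 0.05 in limma. Of all genes, each with its brightest probe set, 61.7% were higher with PA and 2900 of 18820 had an unadjusted p under 0.05. With OA 8 of the 19 were higher, with a median of -0.03, while 56.7% of all genes were higher. Over the 19 arrays the other probe sets of Nlrc5 correlated with the brightest at -0.40 to 0.73, so they did not follow 1 course. The probe sets share the arrays and the gene and are not replicates.

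**Figure D2:**
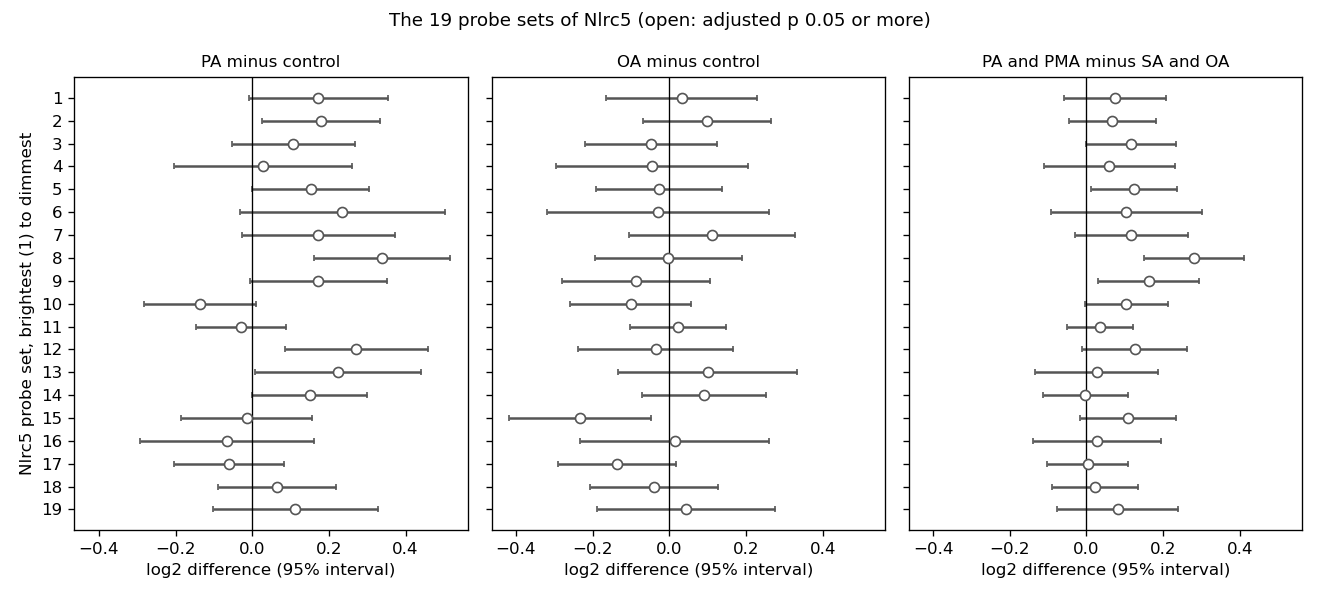
Log2 differences with 95% intervals (x axis) of the 19 probe sets of Nlrc5, ordered from brightest to dimmest down the y axis, for PA minus control, OA minus control, and PA and PMA minus SA and OA. All circles are open, since no probe set had an adjusted p under 0.05, and 14, 8 and 18 of the 19 lie above 0.

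**Figure D3:**
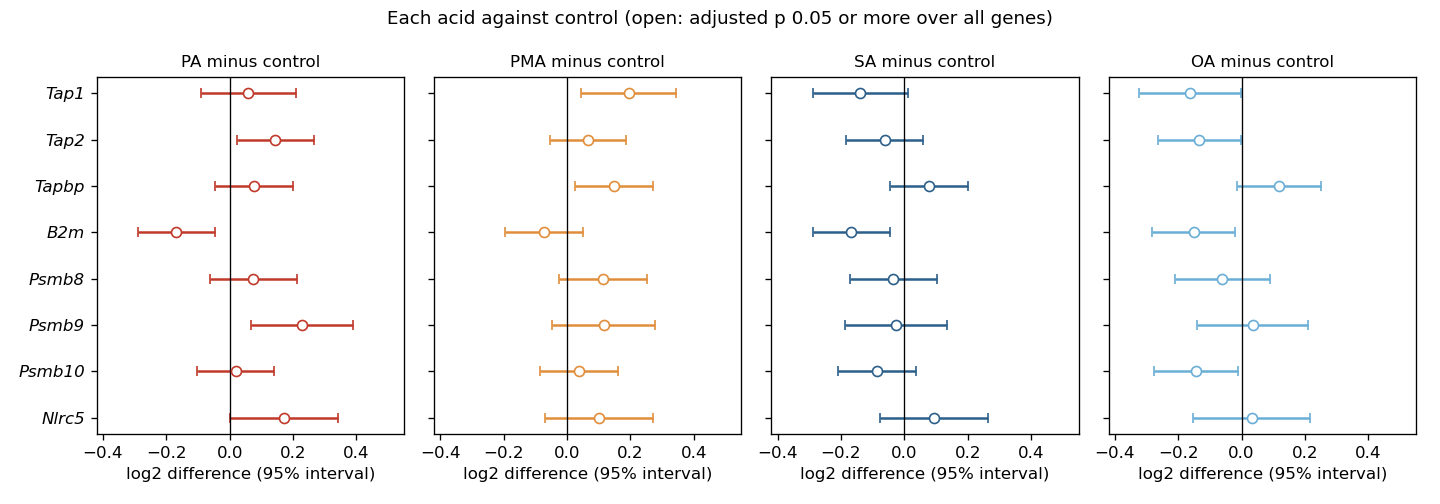
Log2 difference from control (x axis, with 95% intervals) of the 8 genes (y axis) for each acid in its own panel. All circles are open, since no adjusted p was under 0.05, and B2m is the 1 gene to the left of 0 in all 4 panels.

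The acids were then compared with each other in 4 matched pairs at the same dose and time, the acids of a pair differing in the double bond or in chain length. No member was called in any of them. For PA against PMA, the 16-carbon pair that differs by the double bond, limma called 0.962% of all genes. At an unadjusted p under 0.05 there were 0 of the 8 members and 3325 of all genes. The differences of the members ran from -0.14 for Tap1 (95% interval -0.29 to 0.01) to 0.11 for Psmb9 (-0.05 to 0.27). All 4 PA arrays of Tapbp lay below all 4 PMA arrays, as for 7.09% of all genes, at a difference of -0.07 ± 0.06. For SA against OA, the 18-carbon pair, 0.0319% of all genes were called, and the members differed by -0.06 for Psmb9 (-0.23 to 0.11) to 0.07 for Tap2 (-0.06 to 0.20), with 0 members and 451 of all genes at an unadjusted p under 0.05. Over both pairs, saturated against monounsaturated, no member was called beside 0.553% of all genes, 0 members and 2368 of all genes had an unadjusted p under 0.05, and the largest difference was 0.07 for Tap2 (-0.01 to 0.16). These intervals bound the double-bond differences of the members; they do not show that the acids act alike.

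The pairs that differ by chain length gave larger differences for the transporter. For PA against SA, with 0.143% of all genes called, 3 of the 8 members and 2977 of all 18820 genes had an unadjusted p under 0.05. The members were Psmb9 at 0.25 ± 0.08 (adjusted p = 0.172), Tap2 at 0.21 ± 0.06 (0.149) and Tap1 at 0.20 ± 0.07 (0.224). The PA arrays of Tap1 and Tap2 lay above all SA arrays, as for 2.73% of all genes. Psmb9 overlapped, and without PA replicate 1 its difference was 0.32 with an adjusted p of 0.0433, in a comparison that then called 499 of all genes, against 27 with all arrays. For PMA against OA, with 0.0531% of all genes called, Tap1 averaged 6.62 with PMA and 6.26 with OA, a difference of 0.36 ± 0.08 (95% interval 0.20 to 0.52, adjusted p = 0.0991). Tap2 was at 0.20 ± 0.06 (0.432), Psmb10 at 0.18 ± 0.06 (0.482) and Psmb8 at 0.17 ± 0.07 (0.528). These 4 members, and 1620 of all genes, had an unadjusted p under 0.05. The PMA arrays of Tap1, Tap2 and Psmb10 lay above all OA arrays, as for 6.98% of all genes. B2m and Tapbp differed by 0.08 or less in either pair. The interaction, the PA minus SA difference less the PMA minus OA difference, was -0.16 for Tap1 (-0.38 to 0.06, adjusted p = 0.934) and 0.01 for Tap2 (-0.17 to 0.18, 0.999). It was called for 0.00531% of all genes and for no member, with 0 members and 986 of all genes at an unadjusted p under 0.05.

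Since both pairs leaned the same way, the 16-carbon acids were compared with the 18-carbon acids in 1 contrast, which was added after the values were seen, so its p-values are no independent evidence. Tap1 averaged 6.55 with PA and PMA and 6.28 with SA and OA, a difference of 0.28 ± 0.05 or 1.21-fold (95% interval 0.17 to 0.39, adjusted p = 0.0156). Tap2 averaged 7.72 with PA and PMA and 7.52 with SA and OA, a difference of 0.20 ± 0.04 or 1.15-fold (0.11 to 0.29, adjusted p = 0.0326). These 2 members were called beside 0.510% of all genes, 65 of them higher (0.345%) and 31 lower (0.165%); with cyclic loess between arrays 225 genes were called, 99 of them higher. The lowest 16-carbon array of Tap1 read 6.42 and the highest 18-carbon array 6.41, and such a gap in this direction held for 0.181% of all genes. Tap2 overlapped between the chain lengths.

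The other 6 members were not called. Their differences were 0.17 ± 0.06 for Psmb9 (adjusted p = 0.157), 0.14 ± 0.04 for Psmb10 (0.116), 0.14 ± 0.05 for Psmb8 (0.159), 0.07 ± 0.06 for Nlrc5 (0.489), 0.04 ± 0.04 for B2m (0.619) and 0.02 ± 0.04 for Tapbp (0.855). All 8 were positive, with a median of 0.14 beside 0.03 over all genes, of which 65.5% were positive. After cyclic loess all 8 were again positive, with a median of 0.11, while that of all genes was 0.00. The pairs had leaned this way before the contrast was added, so neither count of signs is independent evidence. The 95% interval ran from -0.07 to 0.11 for Tapbp and from -0.05 to 0.13 for B2m.

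The called differences sit close to the threshold. With any 1 array left out, the Tap1 difference ran from 0.25 to 0.30, and its call ended without OA replicate 2 (adjusted p = 0.0611) or OA replicate 3 (0.0608). That of Tap2 ran from 0.18 to 0.22, and its call ended in 9 of the 19 cases, at an adjusted p of 0.0531 to 0.103: without PA replicates 2 or 4, PMA replicates 1 or 3, SA replicates 1, 2 or 3, or OA replicates 2 or 3. Without both PMA replicates 1 and 4 neither was called, at 0.24 for Tap1 (0.133) and 0.18 for Tap2 (0.125). Without both PA replicates 2 and 4 Tap1 stayed called at 0.31 (0.0204), and Tap2 was at 0.17 (0.154).

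**Figure D4:**
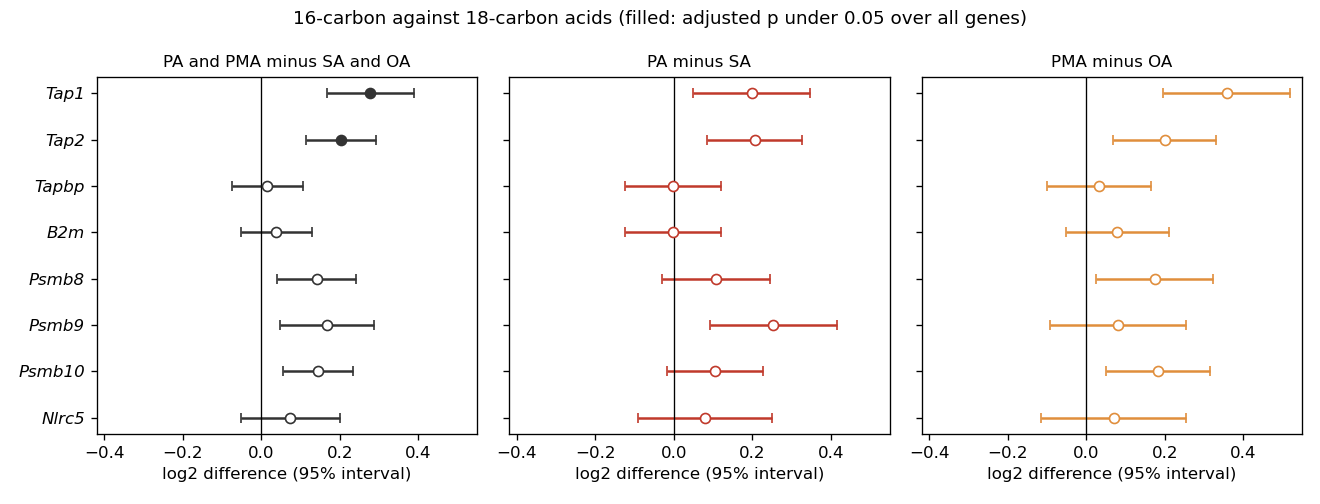
Log2 differences (x axis, with 95% intervals) of the 8 genes (y axis) for PA and PMA minus SA and OA together, PA minus SA, and PMA minus OA. Filled circles mark an adjusted p under 0.05 over all genes, which Tap1 at 0.28 and Tap2 at 0.20 reached in the first panel and no gene in the others.

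**Figure D5:**
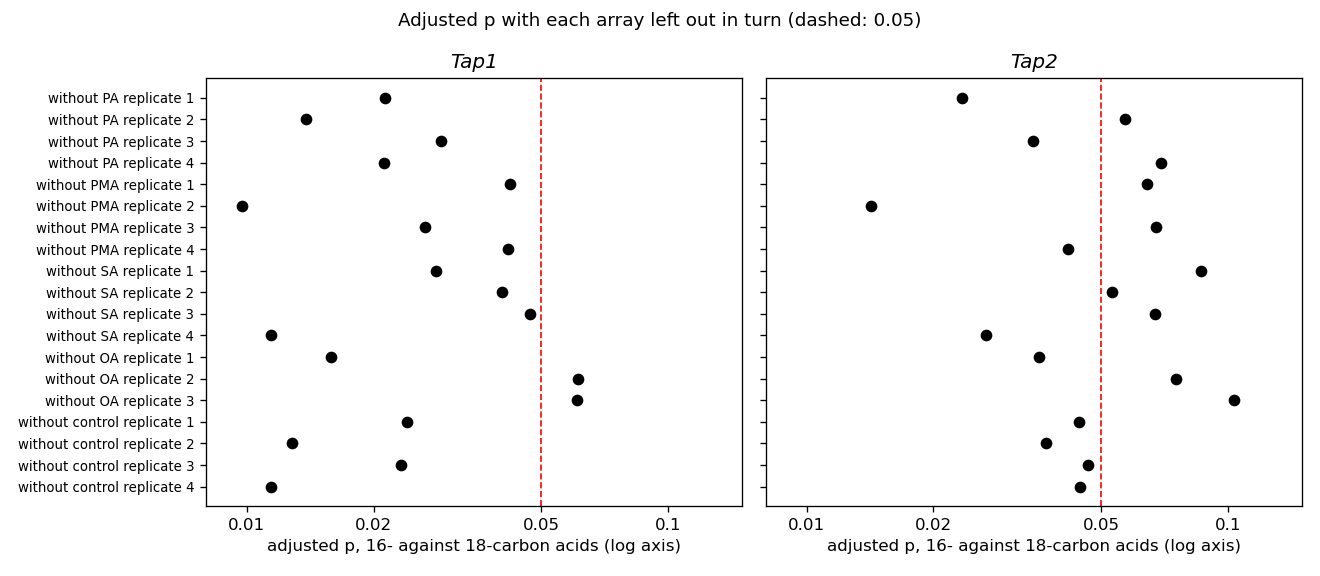
Adjusted p (x axis, log scale) of the difference between 16- and 18-carbon acids for Tap1 and Tap2 when the array named on the y axis is left out; the dashed line is 0.05. Tap1 crosses the line in 2 of 19 cases and Tap2 in 9 of 19.

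Myeloid, lymphocyte and endothelial markers averaged higher with PA and PMA than with SA and OA. They were dim, with a median percentile among all genes of 26.3, 25.9 and 25.7. The mean level of the 8 myeloid markers was 4.75 with PA (arrays 4.68 to 4.81), 4.82 with PMA (4.76 to 4.86), 4.66 with SA (4.64 to 4.70), 4.69 with OA (4.68 to 4.70) and 4.71 in control (4.68 to 4.76). Of the 8, Cd68, a lysosomal protein abundant in macrophages, was the 1 called between the chain lengths, at 6.48 with PA and PMA and 6.14 with SA and OA (0.34 ± 0.07, adjusted p = 0.0342). Of the 11 adipocyte markers, leptin (Lep) was the 1 called, and it was lower with the 16-carbon acids, at 7.98, than with the 18-carbon acids, at 8.24 (adjusted p = 0.00903). The mean of the 7 lymphocyte markers was 4.60 with PA, 4.58 with PMA, 4.50 with SA, 4.54 with OA and 4.47 in control, and that of the 5 endothelial markers was 4.58 with PA, 4.55 with PMA, 4.50 with SA, 4.51 with OA and 4.50 in control. The median difference between 16- and 18-carbon acids was 0.08 for the myeloid, the lymphocyte and the endothelial markers alike, beside 0.03 over all genes. For the adipocyte markers it was -0.05, and for the preadipocyte and fibroblast markers 0.01. No lymphocyte, endothelial or preadipocyte marker was called between the chain lengths. The part of these markers in the Tap1 difference was not tested.

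Other genes of the pathway were read from 6 lists. None of the 58 genes measured from them was called against control with any acid or between the chain lengths. Of the class I heavy chains, 16 of 23 listed were measured. Their median difference between 16- and 18-carbon acids was 0.09, with 12 of 16 positive. Over all genes it was 0.03, with 65.5% positive. The same median was -0.01 for loading and trimming and -0.00045 for the proteasome activator and assembly. It was 0.03 for interferon signalling, 0.03 for class II and 0.04 for the constitutive proteasome subunits. Several of the H2-Q and H2-T genes are close copies, so their probe sets may read more than 1 gene. By smallest p against control the heavy chains were led by H2-M3, which presents formylated peptides, at -0.21 with SA (adjusted p = 0.284). Then came Cd1d1, which presents lipids, at -0.18 with PMA (0.160), and H2-Q6, at -0.19 with SA (0.323). Of the loading and trimming genes, all 5 were measured, and Tapbpl, a tapasin relative that edits peptides, was at 0.12 with PMA (0.243). Erap1, a peptidase that trims peptides in the endoplasmic reticulum, was at -0.15 with PA (0.297), and Pdia3, a partner of tapasin, at -0.09 with PA (0.422). Among the 5 genes of the proteasome activator and of immunoproteasome assembly, Pomp, the assembly chaperone, was lowest, at -0.12 with PA and -0.21 with each of the other acids, with adjusted p of 0.137 to 0.365.

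Of the interferon signalling genes 19 of 22 were measured. Socs3, a feedback inhibitor of cytokine receptors, was at -0.31 with OA (adjusted p = 0.153), Ifngr1, a chain of the interferon gamma receptor, at 0.19 with OA (0.192), and Irf2, a factor that binds interferon response elements, at 0.19 with OA (0.264). Irf1, a further factor of this list, differed from control by -0.05 to 0.05 with the 4 acids. It falls outside the rule for named genes and is named after its values were seen. Its part in the Tap1 difference between the chain lengths was not tested. Of the class II genes 10 of 12 were measured, and 1 was called between acids. Cd74, the invariant chain that escorts class II molecules, averaged 5.55 ± 0.13 with PA and 5.92 ± 0.04 with PMA (SD, n = 4 each), with no overlap. Its difference was -0.37 ± 0.06 (adjusted p = 0.00439), and over both pairs it was lower with the saturated than the monounsaturated acids by -0.20 ± 0.05 (0.0485).

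The pattern of Tap1 over the 19 arrays was most like that of 5 genes by Pearson correlation of log2 values. They were Fads3, of the fatty acid desaturase family, at r = 0.90, Trib3, a pseudokinase of the stress response, at 0.88, Pold2, a subunit of DNA polymerase delta, at 0.87, P2rx3, an ATP-gated channel, at 0.86, and Adamtsl5, a secreted matrix protein, at 0.86. The points share the arrays and the groups, and the correlations carry no p. Between 16- and 18-carbon acids they differed by 0.13 for Fads3, 0.35 for Trib3, 0.11 for Pold2, 0.20 for P2rx3 and 0.21 for Adamtsl5. These differences describe genes chosen for their likeness to Tap1 on the same arrays and carry no test. Of the members, Psmb10 was most like Tap1 (r = 0.66, rank 338 among all genes), before Tap2 (0.59, rank 812) and Psmb8 (0.53). Tapbp was at 0.39, Psmb9, whose start is 226 bases from that of Tap1, at 0.36, B2m at 0.28 and Nlrc5 at 0.04. When each array was taken as its deviation from its group mean, Tap1 correlated at 0.16 with Tap2, 0.04 with Psmb9, 0.32 with Psmb10 and 0.54 with Tapbp. The correlation of Tap1 with Tap2 was thus smaller within the groups than over all arrays, and that with Tapbp larger.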

How the data were processed

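The authors deposited 1 log2 value per probe set and array. Per the submitters' processing notes, RMA was run with the affy package, version 1.34.0, under R 2.15.0. Scan files were not used here. Of 35556 probe sets, 21218 had 1 gene symbol, 1881 several and 12457 none. The brightest probe set by its mean stood for each of 18820 symbols, and dim genes were kept.

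The model, a mean for every group, was fitted in limma (version 3.58.1, R 4.3.3) over the 19 arrays, with lmFit and a plain eBayes without trend or robust option. Tests were two-sided, and p-values were adjusted by Benjamini-Hochberg over all genes of a contrast at a threshold of 0.05. There were 11 contrasts and an F test; the contrast of 16- with 18-carbon acids was added after seeing the data. The fit was tested on simulated data. Intervals are 95% intervals. Alternatives were another summary of probe sets, a filter on dim genes, cyclic loess, a trended robust spread, a replicate block, fewer groups, each array left out, array weights and pairs of arrays left out. The members, the pathway and marker lists and the tests were chosen with earlier results of these data known. Named genes are all members, up to 3 genes per pathway list by smallest p against control, any list gene called, and the 5 genes most correlated with Tap1. Irf1 is named outside this rule. Promoter windows are from RefSeq (GRCm38.p6). The labels give no batch or date.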

Additional observations from a re-analysis of the deposited data

Results flagged for a closer look

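In each of the 8 genes and each group of 4 arrays, 32 sets in all, the highest and lowest arrays were compared with their neighbours, and 2 arrays lay far from the others of their set. Chance gives about 1 in 20. Tapbp read 9.98 in PA replicate 4, against values up to 10.01 in the other PA arrays, and stands out because those 3 lie so close to each other. Psmb10 read 7.53 in control replicate 4, against 7.64 to 7.65 in the other control arrays.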

How the results depend on the processing

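No member was called in the 10 comparisons other than 16 against 18 carbons, except Psmb9 without PA replicate 1, and, with array weights, Psmb10 in OA minus control (-0.17, adjusted p = 0.0494) and Tap1 in PMA minus OA (0.34, 0.0180). So with 1 array left out, PA minus control had 0 to 1 members called, PA minus SA 0 to 1, 16 minus 18 carbons 0 to 2 and the F test 0 to 1. Members called between 16 and 18 carbons were 2, against 0 with every probe set (Tap1 0.28, adjusted p = 0.0526; Tap2 0.20, 0.0677), 1 with the replicate block, 1 without PA replicates 2 and 4, 0 without PMA replicates 1 and 4, and 1 with only the arrays compared, where Tap2 had 0.0748. With array weights Psmb10 joined them (0.16, 0.0367). Tap1 was called between the chain lengths with cyclic loess, array weights and only the arrays compared. The F test called 1 member, against 2 without the dimmest genes, 2 with the trended spread and 2 with array weights, where Tap2 passed at 0.0477, 0.0456 and 0.0221, and 0 with every probe set (Tap1 0.0957) and 0 without PMA replicates 1 and 4 (Tap1 0.199). The cause of these changes was not tested. Some of the settings also use fewer arrays or test another number of genes.

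The labels do not say whether a replicate number marks a shared plate or day, and correlations of deviations cannot settle it. Of 36 pairs with the same number, 6 had deviations correlated above 0.1. The range was -0.43 to 0.40, with a median of 0.006. With the replicate block, Tap1 between the chain lengths had an adjusted p of 0.0193 and Tap2 of 0.0775, and all genes called there were 59 in place of 96.

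None of the differences that changed sign was called. They reached -0.15, for Nlrc5 in the interaction without PA replicates 2 and 4. With the mean of the probe sets, the difference was -0.014 for Nlrc5 in OA minus control. With cyclic loess, the difference was -0.010 for Psmb8 in PA minus control, and -0.021 for Psmb10 in PMA minus control, and 0.045 for Psmb10 in PA minus PMA, and 0.027 for Tapbp, 0.013 for B2m in PA minus SA, and 0.021 for Tapbp in the interaction. With the replicate block, the difference was 0.00068 for B2m in SA minus OA. With array weights, the difference was -0.016 for Nlrc5 in OA minus control, and 0.020 for Psmb10 in PA minus PMA, and -0.0011 for Tapbp in PMA minus OA, and -0.0083 for Tap2, -0.039 for Nlrc5 in the interaction, and -0.0022 for Tapbp in 16 minus 18 carbons. Without PA replicates 2 and 4, the difference was -0.0064 for Psmb9, 0.044 for Psmb10, -0.089 for Nlrc5 in PA minus PMA, and 0.0031 for Tapbp, 0.083 for B2m, -0.081 for Nlrc5 in PA minus SA, and -0.033 for Psmb9, -0.014 for Nlrc5 in saturated minus monounsaturated, and -0.055 for Tap2, 0.0037 for B2m, -0.15 for Nlrc5 in the interaction, and -0.0055 for Nlrc5 in 16 minus 18 carbons. Without PMA replicates 1 and 4, the difference was 0.049 for Psmb8, 0.0013 for Psmb10 in PA minus PMA, and -0.011 for Tapbp in PMA minus OA, and 0.038 for Psmb8 in saturated minus monounsaturated, and 0.0093 for Tapbp, 0.023 for Psmb8 in the interaction, and -0.0062 for Tapbp in 16 minus 18 carbons. With 1 array left out at a time, these differences spanned 0. In PA minus SA it was -0.037 to 0.048 for B2m, -0.010 to 0.14 for Nlrc5, -0.0063 to 0.0059 for Tapbp. In SA minus OA it was -0.068 to 0.017 for B2m, -0.023 to 0.071 for Psmb8, -0.016 to 0.074 for Tap1, -0.10 to 0.048 for Tapbp. In OA minus control it was -0.029 to 0.084 for Nlrc5. In PA minus PMA it was -0.019 to 0.13 for Nlrc5, -0.065 to 0.019 for Psmb10. In the interaction it was -0.080 to 0.066 for Nlrc5, -0.032 to 0.056 for Tap2, -0.12 to 0.032 for Tapbp. In PA minus control it was -0.027 to 0.058 for Psmb10. In saturated minus monounsaturated it was -0.0035 to 0.043 for Psmb10, -0.031 to 0.016 for Psmb8, -0.0079 to 0.064 for Psmb9. In SA minus control it was -0.063 to 0.010 for Psmb8. In 16 minus 18 carbons it was -0.017 to 0.059 for Tapbp. In PMA minus OA it was -0.033 to 0.12 for Tapbp.

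Counts over all genes moved by more than 1.5 times in many settings. With 1 array left out they moved as far: without PA replicate 1, PA minus control gave 510 in place of 0, PA minus SA 499 in place of 27, 16 minus 18 carbons 577 in place of 96 and the F test 544 in place of 276, and PA minus PMA gave 638 in place of 181 without PA replicate 3. Without PA replicate 2, PMA minus control gave 129, SA minus control 59 and OA minus control 243. The lowest counts with 1 array left out were 45 for 16 minus 18 carbons and 4 for PMA minus OA without PMA replicate 1, 146 for the F test, 22 for OA minus control, 0 for SA minus OA and 46 for saturated minus monounsaturated without OA replicate 3, 8 for PMA minus control and 4 for SA minus control without control replicate 4, 49 for PA minus PMA without PA replicate 4, and 9 for PA minus SA without SA replicate 2. The counts that follow are from the other settings. Between 16 and 18 carbons 96 genes were called, against 349 with array weights, 225 with cyclic loess, 213 with the trended spread, 55 with every probe set and 31 without PMA replicates 1 and 4. The F test called 276, against 905 with array weights, 647 with the trended spread, 438 without the dimmest genes, 170 with the replicate block and 129 without PMA replicates 1 and 4. For OA minus control 162 became 72 (block) to 1188 (array weights), for PMA minus control 50 became 3 (without PMA replicates 1 and 4) to 315 (array weights), for SA minus control 31 became 23 to 228, and for PA minus PMA 181 became 22 to 489. PA minus SA gave 2 to 63 in place of 27, PMA minus OA 2 to 79 in place of 10, SA minus OA 3 to 24 in place of 6, saturated minus monounsaturated 51 to 255 in place of 104, and PA minus control 0 to 2 in place of 0. With cyclic loess the called genes that were higher were 14 of 68, in place of 36 of 50, for PMA minus control, 55 of 114, in place of 20 of 181, for PA minus PMA, 45 of 86, in place of 20 of 31, for SA minus control, 17 of 43, in place of 8 of 27, for PA minus SA, 11 of 20, in place of 8 of 10, for PMA minus OA, 6 of 7, in place of 6 of 6, for SA minus OA, and 57 of 120, in place of 26 of 104, for saturated minus monounsaturated. Psmb8 lay below the median of every array, which limits its signal.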
